A study of Homo sapiens with 12 samples.

Results

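The 10 genes described here encode the core of the human microRNA processing machinery and were chosen by name: DROSHA, DGCR8, XPO5, DICER1, TARBP2, PRKRA and the Argonaute genes AGO1, AGO2, AGO3 and AGO4. They are 10 of the 60483 genes counted in total RNA, and all 10 were among the 14409 genes with enough reads to be tested. The cells belonged to HEK293, an established line of human embryonic kidney origin, and carried a Flp-In T-REx cassette switched on by doxycycline (100 ng/ml for 3 days). In one group the cassette produced wild-type DIS3L2 (WT) and in the other its catalytic mutant (mut), both FLAG-tagged at the C terminus and recoded. DIS3L2 is a cytoplasmic exoribonuclease that degrades RNA from its 3′ end. Both groups also made hairpins built into microRNA backbones against the cell's own DIS3L2 transcript. Such hairpins pass through the same machinery, and since every library had them, the comparison of mut with WT is no measure of a response to them. Each group had 3 total RNA libraries, depleted of rRNA and strand-specific, and 3 small RNA libraries of gel-selected inserts (20 to 200 nt). The labels call the libraries triplicates and do not say that they came from separate cultures or how many clones stood for each variant, so each p-value reflects the spread between libraries, possibly technical.

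In animal cells a microRNA starts as a hairpin within a longer transcript. The Microprocessor, made of the nuclease DROSHA and the RNA-binding protein DGCR8, cuts the hairpin out in the nucleus, and exportin-5 (XPO5) carries it to the cytoplasm. There DICER1, with its double-stranded RNA-binding partners TRBP (TARBP2) and PACT (PRKRA), removes the loop, and one strand is loaded into an Argonaute protein, which it guides to target mRNAs. AGO2 is the Argonaute best known for cutting its target. Hairpins embedded in microRNA backbones enter this route at the Microprocessor step.

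Reference sequences of microRNAs are shown first, because the small RNA libraries give a second readout of the route. The sequences below belong to the 8 microRNA hairpins with the most fragments in the small RNA libraries. Added to them are a hairpin inside DGCR8 (hsa-miR-3618) and another inside DICER1 (hsa-miR-3173-5p). DGCR8 also holds the hairpin MIR1306, which is not shown. One mature sequence per hairpin is given from RefSeq (GRCh38.p14), 5′ to 3′, with the seed, bases 2 to 8, in capitals. Fragments were counted over whole hairpins, so the counts do not resolve which arm was sequenced, or mature microRNA from precursor.
hsa-miR-16-5p: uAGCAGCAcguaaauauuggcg
hsa-miR-20a-5p: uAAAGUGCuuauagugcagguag
hsa-miR-17-5p: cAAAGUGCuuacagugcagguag
hsa-miR-19b-3p: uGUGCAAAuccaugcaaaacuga
hsa-miR-182-5p: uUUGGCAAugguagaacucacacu
hsa-let-7b-5p: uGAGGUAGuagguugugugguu
hsa-miR-744-5p: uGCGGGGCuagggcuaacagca
hsa-miR-101-5p: cAGUUAUCacagugcugaugcu
hsa-miR-3618: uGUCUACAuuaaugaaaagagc
hsa-miR-3173-5p: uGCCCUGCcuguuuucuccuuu
The miR-17-5p and miR-20a-5p lines share the seed AAAGUGC, and the hairpins of miR-17, miR-20a and miR-19b-1 lie together in the host transcript MIR17HG on chromosome 13.

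Counts in genes were 8315986 to 12675042 per total RNA library, and the 10 genes had 229 to 3958 counts each per library. DIS3L2 itself, which may sum transgene and residual endogenous transcripts, averaged 1092 ± 51.6 counts per 1000000 counts in tested genes, TMM-scaled (CPM), in mut and 784 ± 25.8 in WT (SD, n = 3), and this count is no test of the silencing. The summed counts of 11 HEK293 markers, per 1000000 counts in all genes and without TMM scaling, were 1940 to 2049 in mut and 1632 to 1782 in WT. Most of this was VIM, with means of 1417 CPM in mut and 1210 CPM in WT, while PAX2 and NEFM had at most 10 and 4 counts per library. Of the 9 tested markers 6 were higher in mut and 0 lower (edgeR adjusted p under 0.05), or 66.7% beside 27.2% of all tested genes. Blood markers summed to at most 0.473 on the same unscaled measure, with 3 of 5 at 0 in every library. Fibroblast markers summed to 4.66 to 6.66 in mut and 2.65 to 3.71 in WT, also on that scale, with COL1A2, DCN and LUM at 0 in every library. COL3A1 and COL1A1 were higher in mut by 2.03 and 0.83 (log2, edgeR adjusted p = 0.0011 and 0.033), at means of at most 2.78 CPM. The COL1A1 groups overlapped, and its call was lost in 5 of 14 alternative settings. COL3A1 had 3, 4 and 3 counts in the WT libraries, and DESeq2 called 0 of the fibroblast markers. Reads outside annotated genes made up 12.3% to 13.7% of all deposited counts, gene rows and other rows together, in mut and 16.6% to 19.4% in WT. Reads overlapping several genes made up 8.60% to 9.86% and 6.90% to 8.28%. Reads without a unique alignment made up 37.3% to 42.0% and 30.5% to 39.5%, with overlap between the groups. The 3 shares have the same denominator, so they depend on each other. The first 2 shares and the marker levels differ between the groups. The part of the 3 shares and of the markers in the results was not tested.

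Of the 10 genes, TARBP2 was higher in mut, DICER1 was lower, and 8 were not called (edgeR quasi-likelihood F test, adjusted p under 0.05). Over all 14409 genes 27.2% were called, 13.0% higher and 14.2% lower, so 2 calls among 10 genes is near the background share. TARBP2 was the 1 gene of the 10 whose mut and WT libraries did not overlap, while groups without overlap were seen in 40.5% of all tested genes. The median log2 fold change of the 10 was -0.03, beside -0.01 over all tested genes. In bulk RNA, fewer cells of a type and less RNA per cell cannot be told apart.

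**Figure D1:**
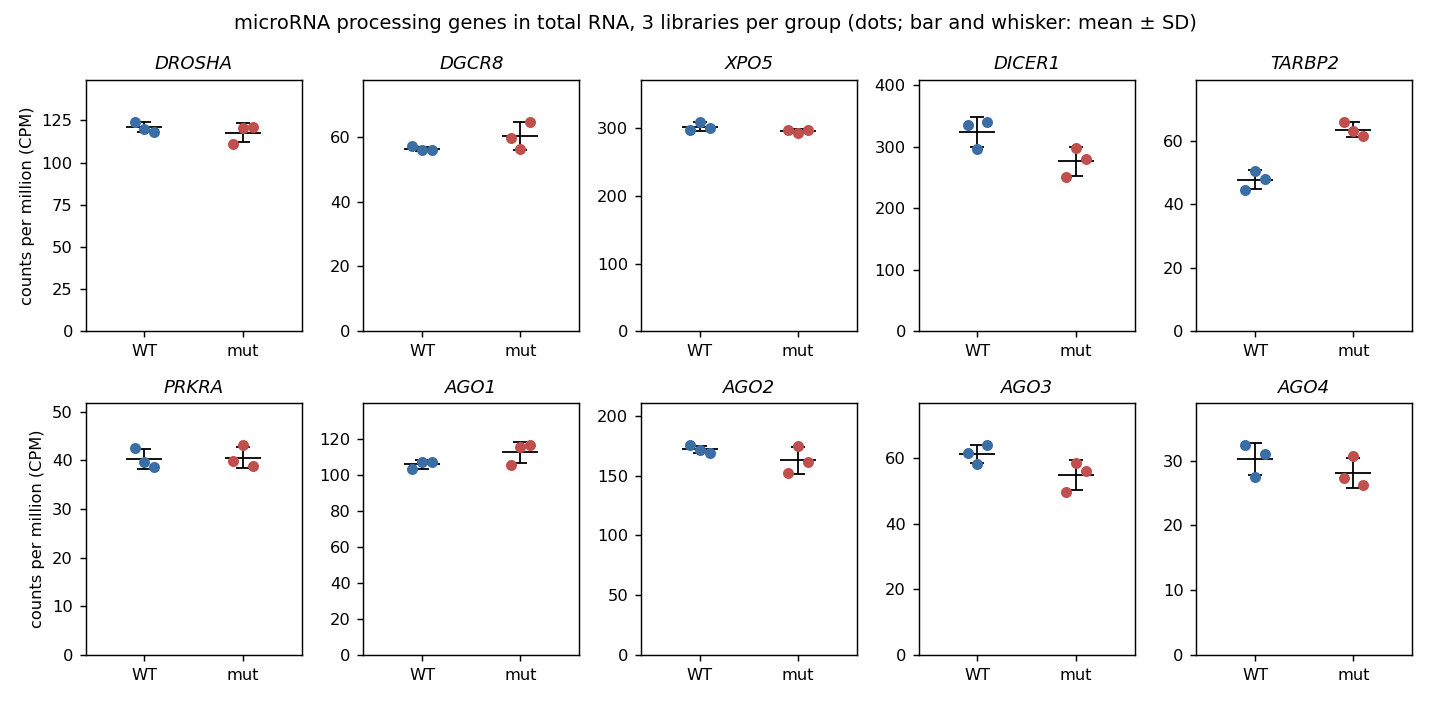
Level of each of the 10 genes in CPM (vertical axis, from 0) in the 3 WT (blue) and 3 mut (red) total RNA libraries, with mean and SD. TARBP2 is the gene whose groups do not overlap, and DICER1 has a lower mean in mut with mut replicate 2 just above WT replicate 2.

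DROSHA (ENSG00000113360.15, chr5:31400494-31532093, hg38) is the nuclease of the Microprocessor. Its level was 111, 121 and 121 CPM in mut replicates 1 to 3 and 124, 120 and 118 CPM in WT. The values interleaved, with the lowest in mut replicate 1. The log2 fold change was -0.04 (SE 0.06, 95% interval -0.17 to 0.09, edgeR adjusted p = 0.682). DGCR8 (ENSG00000128191.12, chr22:20080241-20111872), its RNA-binding partner, measured 59.6, 56.3 and 64.7 CPM in mut and 57.1, 55.9 and 55.9 CPM in WT. The values of mut replicates 1 and 3 exceeded every WT value, and mut replicate 2 lay within the WT range. The log2 fold change was 0.10 (SE 0.07, interval -0.05 to 0.25, edgeR adjusted p = 0.344). Per 100 DROSHA counts there were 51.2 ± 3.90 DGCR8 counts in mut and 46.6 ± 0.666 in WT (SD, n = 3), with overlap. As background, the Microprocessor is known to cut hairpins in the DGCR8 transcript itself.

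XPO5 (ENSG00000124571.16, chr6:43522334-43576038), the export receptor, had the narrowest interval of the 10. It measured 298, 293 and 298 CPM in mut and 297, 309.9 and 299.9 CPM in WT. The log2 fold change was -0.03 (SE 0.05, interval -0.14 to 0.08, edgeR adjusted p = 0.718), so a change beyond that interval was not seen in either direction. XPO5 shares 40074 bases with POLR1C on the opposite strand. POLR1C itself had a log2 fold change of 0.05 (edgeR adjusted p = 0.673).

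DICER1 (ENSG00000100697.13, chr14:95086228-95158010), the cytoplasmic nuclease, was lower in mut. It gave 251, 298 and 280 CPM in mut, while WT replicates 1 to 3 gave 335, 296 and 341 CPM, for means of 276 ± 24.0 and 324 ± 24.1 (SD, n = 3). WT replicate 2 lay below mut replicate 2, so the groups overlapped at 1 library each. The log2 fold change was -0.23 (SE 0.07, 95% interval -0.36 to -0.09, edgeR adjusted p = 0.0108), or 0.854 of the WT level. The call was lost without mut replicate 1 (adjusted p = 0.071), without WT replicate 1 (0.059) and without WT replicate 3 (0.11), with log2 fold changes of -0.29 to -0.15 over the libraries left out in turn. DICER1 shares 323 bases with the antisense gene DICER1-AS1, which had 14 to 47 counts and a log2 fold change of -0.30 (edgeR adjusted p = 0.405).

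TARBP2 (ENSG00000139546.9, chr12:53500923-53506431) encodes TRBP, a DICER1 partner that also bridges DICER1 to Argonaute. It measured 66.0, 63.0 and 61.4 CPM in mut and 44.6, 50.5 and 47.9 CPM in WT. Every mut library was above every WT library, with means of 63.4 ± 2.35 and 47.7 ± 2.98 CPM (SD, n = 3). The log2 fold change was 0.41 (SE 0.07, 95% interval 0.26 to 0.56, edgeR adjusted p = 0.000155), a level 32.8% higher (interval 19.6% to 47.4%). It stayed called with any 1 library left out, at 0.36 to 0.46. The absolute change was larger than that of 82.3% of tested genes, and that of DICER1 than 60.7%. TARBP2 overlaps 617 bases of MAP3K12 on the opposite strand. MAP3K12 was also higher, at 39 to 57 counts against 35 to 51 (log2 fold change 0.54, SE 0.19, adjusted p = 0.0332 by edgeR). The strand setting of the counting, which decides whether reads in the overlap were counted and for which gene, is not given in the sources used here.

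PRKRA (ENSG00000180228.11, chr2:178431414-178451175) encodes PACT, the other DICER1 partner. Its level was 39.9, 43.1 and 38.8 CPM in mut and 42.6, 39.6 and 38.7 CPM in WT. The values interleaved, and the log2 fold change was 0.01 (SE 0.08, interval -0.15 to 0.17, edgeR adjusted p = 0.945), with a sign that changed under 5 alternative settings. Ratios of raw counts do not depend on the scaling of the libraries, and the following were chosen after the values had been seen. Per 100 DICER1 counts, TARBP2 counts numbered 26.3, 21.1 and 22.0 in the mut replicates and 13.3, 17.1 and 14.1 in the WT replicates, with no overlap. Per 100 PRKRA counts it had 157 ± 9.84 in mut and 119 ± 12.3 in WT (SD, n = 3), again with no overlap. PRKRA itself had 14.8 ± 1.04 counts per 100 DICER1 counts in mut and 12.5 ± 1.03 in WT, also with no overlap. Both ratios to DICER1 share its counts, and PRKRA was not called, so they are not separate results. Single genes without overlap made up 40.5% of tested genes, and how often such ratios separate was not counted. In all 3 ratios the means differed by more than the SD of either group, and no test was made because the ratios were picked from the values.

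**Figure D2:**
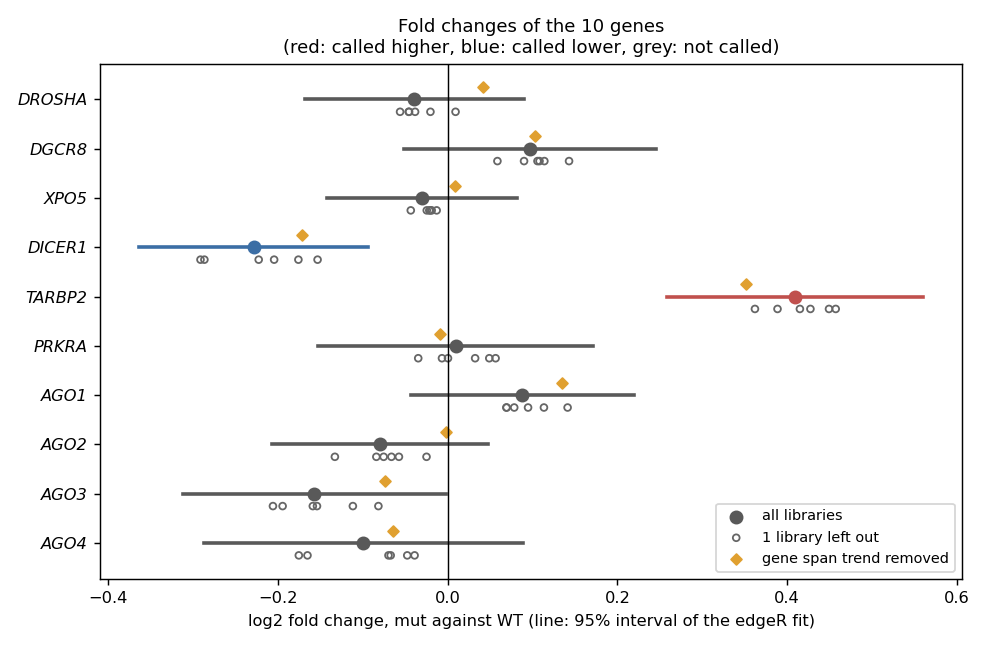
Log2 fold change of mut against WT for each gene (filled dot) with its 95% interval (line), the values with 1 library left out (open dots) and the value after a per-library trend on gene span was removed (diamond). The intervals of DICER1 and TARBP2 lie clear of 0 on opposite sides, and that of AGO3 ends at -0.0026.

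The Argonaute genes AGO4, AGO1 and AGO3 lie in a row on chromosome 1, with 11870 bases between AGO4 and AGO1 and 185 bases between AGO1 and AGO3, and AGO2 lies on chromosome 8. None was called. AGO1 (ENSG00000092847.9, chr1:35869761-35930532) measured 106, 115 and 116 CPM in mut and 103, 107 and 107 CPM in WT, a log2 fold change of 0.09 (SE 0.06, adjusted p = 0.329 by edgeR). AGO2 (ENSG00000123908.10, chr8:140520156-140642313) measured 152, 175 and 161 CPM in mut and 175, 171 and 169 CPM in WT, a log2 fold change of -0.08 (SE 0.06, adjusted p = 0.362 by edgeR). Mut replicate 1 was the lowest library for AGO2, and the groups of both genes overlapped.

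AGO3 (ENSG00000126070.17, chr1:35930718-36072500) measured 49.8, 58.5 and 56.1 CPM in mut and 61.4, 58.3 and 63.9 CPM in WT, a log2 fold change of -0.16 (SE 0.08, interval -0.31 to -0.0026, edgeR adjusted p = 0.124). AGO3 had an unadjusted p under 0.05 and did not pass the adjustment. AGO4 (ENSG00000134698.10, chr1:35807636-35857890) measured 27.4, 30.7 and 26.3 CPM in mut and 32.4, 27.5 and 31.0 CPM in WT, a log2 fold change of -0.10 (SE 0.09, adjusted p = 0.446 by edgeR). The 3 neighbouring genes thus gave values on both sides of 0, with AGO1 above and AGO3 and AGO4 below, and the difference between them was not tested.

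As shares of the summed Argonaute counts, AGO1 made up 31.4% ± 0.948 in mut and 28.7% ± 0.853 in WT (SD, n = 3), with no overlap. AGO3 made up 15.3% ± 0.380 and 16.6% ± 0.594, also with no overlap. Shares of the same sum depend on each other, so these are not separate results, and neither gene was called. Single genes without overlap made up 40.5% of tested genes, and how often such shares separate was not counted. The shares of AGO2 (45.4% ± 0.636 and 46.6% ± 0.884) and of AGO4 overlapped between the groups. The shares are of raw counts, so they compare groups for 1 gene and not genes with each other. With any 1 library left out, mut minus WT was -1.65 to -0.81 percentage points for AGO2 and -0.66 to -0.07 for AGO4. For AGO1 and AGO3 the sign could not turn, since their groups do not overlap.

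The fold changes were set beside the 20 nearest tested protein-coding genes of each gene, 10 on either side, since earlier results of these data had shown that fold changes follow chromosome segments. TARBP2 lay above 16 of its 20 neighbours, whose median was 0.00, and DICER1 lay below 16 of its 20, whose median was -0.10 with 0 higher and 4 lower. DROSHA lay below 19 of its 20 neighbours, whose median was 0.18 with 8 higher and 0 lower. The medians around XPO5 and DGCR8 were 0.14 and 0.08, and those around PRKRA and AGO2 both -0.14. The nearest neighbours of TARBP2 were MAP3K12 and ATF7, the second of them lower (log2 fold change -0.36, edgeR adjusted p = 0.0226). Fold changes also moved with gene span: the median was 0.07 for protein-coding genes up to 10 kb, the class of TARBP2, and -0.10 for those over 100 kb, which include DROSHA, AGO2 and AGO3. With the span trend removed TARBP2 was at 0.35 and DICER1 at -0.17, both still called.

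**Figure D3:**
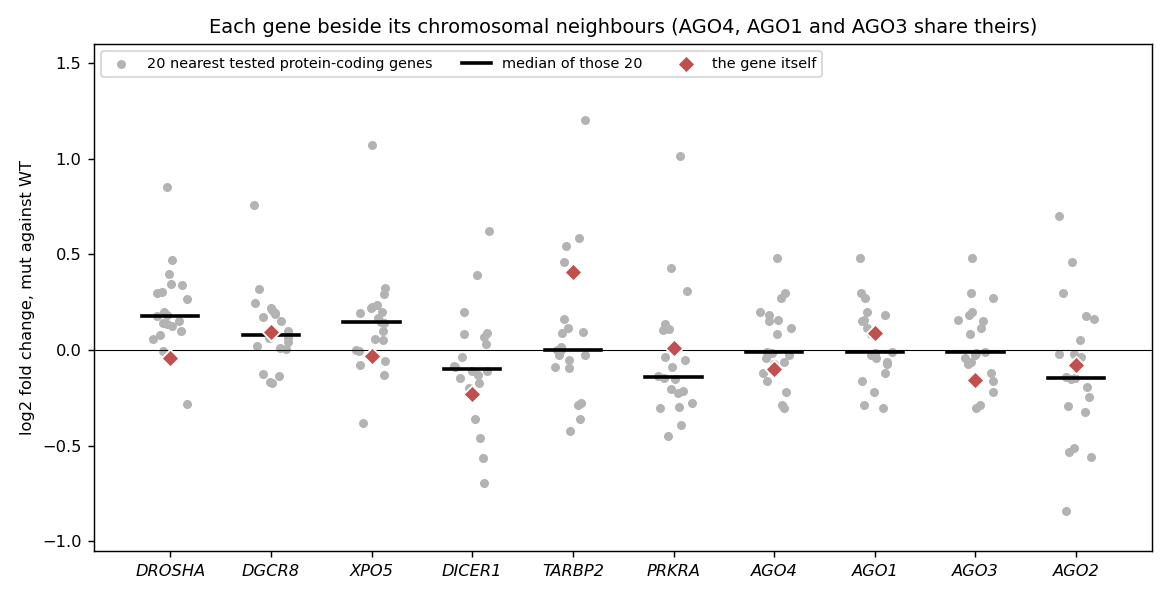
Log2 fold change of mut against WT for each gene (red diamond) beside its 20 nearest tested protein-coding genes (grey dots) and their median (bar). DROSHA sits below the median of its neighbours, 0.18, while TARBP2 sits above 16 of its 20.

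The genes most like DROSHA across the 6 total RNA libraries, by mean absolute difference in centred log2 CPM among 2991 genes of similar level, were CPNE3, PURA and PSMD1. For DICER1, among 943 genes, they were NCKAP1, ASCC3 and KIF5B, with log2 fold changes of -0.20, -0.24 and -0.23, all called lower (edgeR adjusted p = 0.024, 0.0096 and 0.0108). Since they were picked for their likeness to DICER1, their direction follows from the choice.

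The wider pathway was read from 6 lists holding 133 genes, of which 114 were tested. Of these, 13 were higher and 23 lower, or 31.6% called beside 27.2% of all genes. The 13 higher genes include DIS3L2 itself. Of 19 Microprocessor cofactors 2 were higher and 2 lower. SRRT (ARS2), which links the nuclear cap-binding complex to microRNA processing, rose by 0.28 (log2, edgeR adjusted p = 0.0089). Its groups overlapped, and the SRRT call was lost without mut replicate 3 (edgeR adjusted p = 0.056) or WT replicate 1 (0.077). The helicase gene DDX5 fell by 0.26 and the cap-binding gene NCBP2 by 0.24 (edgeR adjusted p = 0.0011 and 0.018). The count of higher cofactors was 0 without mut replicate 3 or WT replicate 1 and 1 without WT replicate 2 or 3, and that of lower ones was 1 without mut replicate 1, WT replicate 1 or WT replicate 3. With the replicate block 1 cofactor was higher and 2 lower. DESeq2 called 2 higher and 1 lower, with NCBP2 at an adjusted p of 0.073. Of 8 nuclear transport genes 1 was higher, TNPO1 (0.19, edgeR adjusted p = 0.015), and 2 were lower. NUP153, a nuclear pore protein gene, fell by 0.31 and IPO8, an importin gene, by 0.19 (edgeR adjusted p = 0.00021 and 0.035). The IPO8 call was lost in 9 of 14 alternative settings, among them the replicate block (adjusted p = 0.095), DESeq2 (0.091) and removal of the span trend (0.096). The TNPO1 call was lost without mut replicate 2 (edgeR adjusted p = 0.088) or WT replicate 2 (0.070). With the block 1 transport gene was higher and 1 lower. With 1 library left out, 1 or 2 transport genes were higher and 1 to 3 lower.

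Argonaute loading needs the HSP70 and HSP90 chaperones. Of 18 genes for loading and Argonaute regulation 3 were higher and 1 lower. HSPA8 and HSP90AB1, the constitutive chaperone genes, rose by 0.22 each (log2, edgeR adjusted p = 0.00071 and 0.00067), and TSNAX, a subunit gene of the C3PO nuclease, rose by 0.30 (edgeR adjusted p = 0.0022). HSP90AA1, the inducible HSP90 gene, fell by 0.31, with 934, 1143 and 1172 CPM in mut and 1335, 1293 and 1400 CPM in WT (edgeR adjusted p = 0.00064). Without mut replicate 1, its lowest library, the log2 fold change was -0.20 and still called. The 2 HSP90 genes therefore went opposite ways.

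Of 30 genes that act after Argonaute binds its target, 3 were higher and 5 lower. EDC4, a decapping scaffold gene, averaged 156 ± 2.25 CPM in mut and 113 ± 4.27 in WT (SD, n = 3), a log2 fold change of 0.47 (edgeR adjusted p = 2.9e-06). WTIP and AJUBA, which encode LIM-domain proteins of processing bodies, rose by 0.53 and 0.39 (edgeR adjusted p = 0.0051 and 0.017). PAN3, a deadenylase subunit gene, fell by 0.38, CNOT2 of the CCR4-NOT complex by 0.25 and LSM14A by 0.22 (edgeR adjusted p = 0.0021, 0.0055 and 0.023). The 5 lower genes became 3 without mut replicate 1, mut replicate 3 or WT replicate 1, and 1 without WT replicate 3. DESeq2 called 2 higher and 2 lower, with AJUBA and LSM14A at adjusted p = 0.092 and 0.068.

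The list for microRNA tailing and turnover includes DIS3L2 itself, whose count may sum transgene and endogenous transcripts. DIS3L2 was called higher (log2 fold change 0.48, edgeR adjusted p = 1.9e-07) and is 1 of the 3 higher genes counted next. Of 21 tested genes in this list, 47.6% were called, 3 higher and 7 lower, and their median was -0.13. After removal of the gene span trend it was -0.03, with 3 higher and 5 lower. The uridylyltransferases TUT4 and TUT7 add uridines to precursor let-7, a mark that DIS3L2 is known to read. TUT7 measured 27.2, 34.1 and 32.3 CPM in mut and 45.4, 40.9 and 50.0 CPM in WT, with no overlap and a log2 fold change of -0.53 (SE 0.09, adjusted p = 9.8e-05 by edgeR). TUT4 measured 87.5, 85.0 and 91.0 CPM in mut and 112, 102 and 119 CPM in WT, with no overlap and a log2 fold change of -0.34 (SE 0.07, adjusted p = 0.00061 by edgeR). TENT2, a poly(A) polymerase gene, fell by 0.42 (edgeR adjusted p = 5.9e-05). TENT4A rose by 0.30 and SND1, a gene for a nuclease linked to microRNA decay, by 0.17 (edgeR adjusted p = 0.0051 and 0.026). The SND1 call was lost with the replicate block (adjusted p = 0.099), with no filter (0.076) and without mut replicate 3, WT replicate 1 or WT replicate 3, and its value was 0.30 with the span trend removed. Without mut replicate 1 the median of this list was -0.01, with 3 higher and 5 lower, and without WT replicate 3 it was -0.05, with 2 higher and 4 lower.

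**Figure D4:**
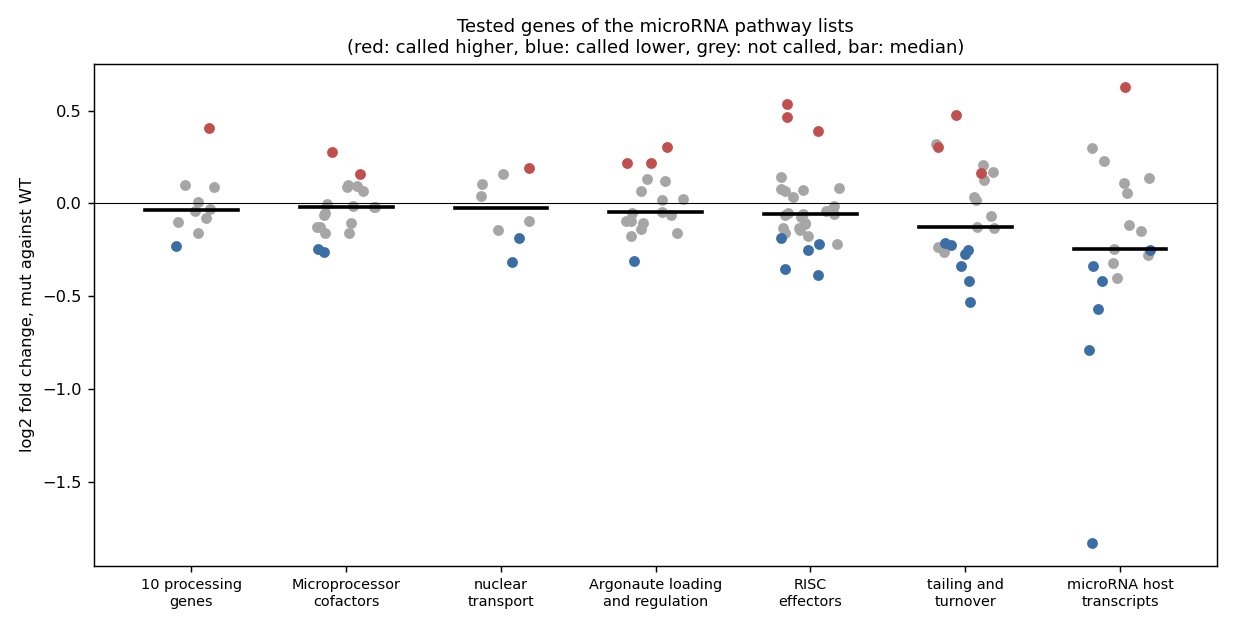
Log2 fold change of mut against WT for the tested genes of the 10-gene machinery and of 6 lists around it, with called genes in colour and the median as a bar. The medians of the tailing and turnover genes and of the microRNA host transcripts are -0.13 and -0.25, and the first is -0.03 with the gene span trend removed and -0.01 without mut replicate 1.

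Of 18 tested transcripts that host microRNA hairpins 1 was higher and 6 lower, with a median of -0.25. Over 743 lncRNA genes 9.69% were higher and 9.56% lower. MIR17HG (chr13:91347687-91354577), the host of miR-17, miR-20a and miR-19b-1, measured 42.1, 48.2 and 45.6 CPM in mut and 59.2, 55.3 and 57.5 CPM in WT, with no overlap (log2 fold change -0.34, SE 0.07, adjusted p = 0.0013 by edgeR). MIRLET7BHG, the host of let-7b, fell by 0.25 (edgeR adjusted p = 0.033). DLEU2, the host of miR-16-1, had a log2 fold change of 0.14 and was not called (edgeR adjusted p = 0.232). MIR222HG and MIR924HG fell by 1.83 and 0.57 and MIR762HG rose by 0.63 (edgeR adjusted p = 0.00068, 0.020 and 0.042), all at means under 7 CPM. The calls of MIR924HG and MIR762HG were lost in 5 and 6 of 14 alternative settings, DESeq2 among them (adjusted p = 0.150 and 0.218). DESeq2 called 0 of the hosts higher and 2 lower, MIR17HG and MIR222HG (adjusted p = 0.0047 and 0.011), so the MIRLET7BHG call was lost there. With libraries left out, edgeR called 3 lower without mut replicate 1, mut replicate 3, WT replicate 1 or WT replicate 3.

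In the small RNA libraries microRNA hairpins were scarce. Of 1256 hairpin features 56 had any fragment, and together they held 431 fragments, of which 55.7% were on MIR16-1 and MIR20A. Hairpins took 0.00801%, 0.00844% and 0.0127% of the fragments in mut replicates 1 to 3 and 0.0130%, 0.0120% and 0.0137% in WT replicates 1 to 3. The exact 95% binomial intervals, which cover counting error only, ran from 0.00608% to 0.0162% in mut and from 0.00911% to 0.0170% in WT. Mut replicate 3 lay within the range of the WT libraries, so the groups overlapped.

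Only MIR16-1 and MIR20A passed the count filter, and of these edgeR called 0, with 0 at an unadjusted p under 0.05, beside 0.179% of 559 annotated features called (1 feature). MIR16-1 (chr13:50048973-50049061) had 21, 37 and 24 fragments in mut and 14, 10 and 15 in WT. As FPM (fragments per 1000000 in the library) these were 29.0, 30.3 and 47.7 in mut and 27.1, 20.3 and 25.6 in WT, without overlap. The log2 fold change was 0.59 (SE 0.28, adjusted p = 0.699 by edgeR). Groups without overlap were seen in 9.77% of 1065 small RNA features, a larger set than the 559 tested. The share for those 559 alone is not given here. MIR20A (chr13:91351065-91351135) had 14, 30 and 17 fragments in mut and 16, 21 and 21 in WT, with overlap in FPM (log2 fold change -0.43, SE 0.27, adjusted p = 0.733 by edgeR). A change of either hairpin by the sizes seen for the 10 genes was not detectable at this depth. The miR-16 sequence also comes from another locus, so the split of its fragments between loci is uncertain.

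MIR182 (chr7:129770379-129770490) had 4 fragments in each mut library and 8 in each WT library, or 3.28 to 7.94 and 13.7 to 16.2 FPM, without overlap. MIR17, which shares its seed with MIR20A, had 3, 2 and 4 fragments in mut and 6, 3 and 11 in WT. With no count filter, 56 hairpins were tested, MIR17 and MIR182 had an unadjusted p under 0.05, and edgeR called 0. MIR744, MIRLET7B, MIR101-1 and MIR19B1 had 11 to 13 fragments each in all. The hairpin of miR-3618 inside DGCR8 had 0, 3 and 0 fragments in mut and 2, 2 and 0 in WT, and that of miR-3173 inside DICER1 had 0 in every library.

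**Figure D5:**
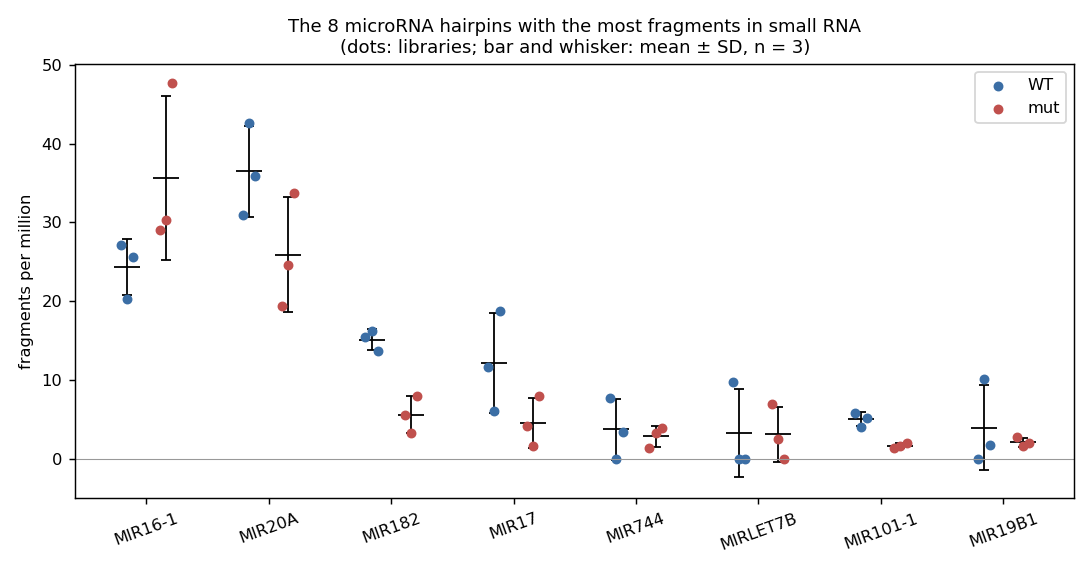
FPM (vertical axis) in the small RNA libraries for the 8 microRNA hairpins with the most fragments, in WT (blue) and mut (red), with mean and SD over 3 libraries. MIR16-1 and MIR20A stand highest in both groups, and the others rest on 11 to 36 fragments over all 6 libraries.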

How the data were processed

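Raw counts of reads per Ensembl gene were deposited for total RNA. For small RNA the authors deposited fragment counts, FPM (a depth-scaled signal) and FPKM per feature. The submitters' processing notes list, with no roles, the tools STAR 2.4.0, HTSeq 0.6.1, DESeq2 1.8.2, CASAVA 1.8.2, FastQC 0.11.3 and SAMtools 1.2-10, and build hg38. Neither annotation version nor strand setting is given in the sources used here. Reads in rows without a gene, 57.8% to 63.2%, were left out.

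Each assay was tested apart with edgeR 4.0.16 (R 4.3.3; filterByExpr, TMM, quasi-likelihood F test, two-sided, Benjamini-Hochberg at 0.05), checked on simulated data. Library sizes in total RNA were recomputed after the filter. A first fit kept the earlier sizes, and the change was made to follow a previous analysis of these files after both outcomes, and fits with other orders of filter and scaling or robust dispersion, had been seen (2037 higher and 1891 lower at first, 1867 and 2049 as used). The calls of the 10 genes are the same in both. Alternatives used DESeq2 1.42.0, other scalings, no filter, a replicate block, removal of the gene span trend, each library left out, and limma 3.58.1 on log2(FPKM + 1).

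The members and lists were chosen with earlier results of these data known. Named are all 10 genes, per list the called genes with the 3 smallest adjusted p in each direction, the 3 genes most like DROSHA and DICER1, the nearest neighbours and the 8 hairpins with the most fragments. MIRLET7BHG, DLEU2 and the gene overlaps were added afterwards, as were hairpins inside DGCR8 and DICER1. The values of 1 gene that the rule selects are not reported here. Hairpins were named by RefSeq position, with both ends within 5 nt. Exon lengths were not used here, so levels per length were not made, genes are not compared in level, and Argonaute shares are of raw counts.

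Replicates differed by more than sampling noise (chi-square per degree of freedom 1.87 to 3.97). Small RNA libraries held 493314 to 1219718 fragments.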

Additional observations from a re-analysis of the deposited data

How the results depend on the processing

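TARBP2 stayed called under all 14 alternative settings in total RNA, and DICER1 under 11, the exceptions being the 3 libraries named beside its result, which take the count of lower genes among the 10 from 1 to 0 (range 0 to 1 over the libraries left out in turn). With the replicate block, TARBP2 had an adjusted p of 9.2e-05 and DICER1 of 0.016 (edgeR). Same-numbered libraries showed no shared deviation (r = -0.0891, -0.0732 and 0.0321), while differently numbered ones gave r from -0.107 to 0.171. These values do not tell whether the libraries were prepared in pairs, and the labels do not say. The block called 1675 genes higher and 1845 lower. Of all genes, DESeq2 called 1200 higher and 1250 lower, and without WT replicate 3 edgeR called 1274 lower. In the pathway lists DESeq2 called 12 lower in place of 23, and the count ran from 11 to 25 over the libraries left out in turn, with 15 without mut replicate 1, 15 without mut replicate 3, 14 without WT replicate 1 and 11 without WT replicate 3. 2 settings were added after the data were seen: with library sizes from before the filter and with TMM before the filter, all genes gave 2037 and 1732 higher and 1891 and 2207 lower, DICER1 was at -0.22 and -0.24 and TARBP2 at 0.42 and 0.40.

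Signs turned in 3 genes that were not called. With the span trend removed DROSHA was at 0.041, XPO5 at 0.0088 and PRKRA at -0.0091. PRKRA was at -0.0034 with no filter and -0.0034 with TMM before the filter. Leaving out each library in turn gave DROSHA -0.056 to 0.0091, above 0 without mut replicate 1, and PRKRA -0.035 to 0.056, with -0.035 without mut replicate 2 and -0.0069 without WT replicate 2. The cause was not tested. Calls lost under some settings in the lists include AJUBA, CNOT2, IPO8, LSM14A, MIR762HG, MIR924HG, MIRLET7BHG, NCBP2, SND1, SRRT and TNPO1. Small RNA microRNA hairpins gave 0 calls under all 10 alternatives. Shares of Argonaute counts per length were not run.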
